A study of Mus musculus with 10 samples.

Results

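The genes described here carry glucose into muscle fibres, start its breakdown and move lactate out: the glucose transporter genes Slc2a1 and Slc2a4, the hexokinase gene Hk1, the Pfkfb1, Pfkfb3 and Pfkfb4 genes, the lactate dehydrogenase gene Ldhb, the lactate transporter genes Slc16a1 and Slc16a3, and Bsg. They were chosen by symbol, with earlier results of these data known, and are 10 genes of 18025 in the deposited tables. The low-count filter left 12697 genes, and 10 of 10 passed it. Messenger RNA of gastrocnemius, the fast calf muscle, was sequenced from C57BL/6 mice, all wild type and with a listed age of 8 weeks. The control group had 5 samples and the group labelled COPD (chronic obstructive pulmonary disease, modelled by cigarette smoke per the series title) also had 5. The labels state neither the dose and length of smoke exposure nor what the controls breathed. Nothing in them states that the samples are separate animals, so the p-values describe the spread among these libraries only. Part of that spread may be technical.

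Glucose enters a fibre through Slc2a4 (GLUT4), which insulin and contraction bring to the cell surface, and through Slc2a1 (GLUT1). Slc2a1 is also the glucose transporter of nerve sheath and barrier endothelium. Hexokinase traps the sugar as a phosphate. The PFKFB enzymes make and remove the fructose bisphosphate that switches phosphofructokinase on, so they set the pace of glycolysis. Lactate dehydrogenase interconverts pyruvate and lactate, with the Ldha subunit prevailing in fast fibres and the Ldhb subunit in heart and slow fibres. Lactate crosses the membrane through Slc16a3 (MCT4), typical of glycolytic fibres, and Slc16a1 (MCT1), typical of oxidative ones. Both need basigin, the product of Bsg, to reach the surface.

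Skeletal muscle markers summed to 59920 to 99549 TPM in control and 87025 to 92403 TPM in COPD (TPM is abundance per transcript length, scaled to 1000000 in each library), and the 8 fast-fibre markers to 128142 to 178508 TPM over all libraries. Library totals ran from 14085854 to 17251034 expected counts, so that 1 CPM (TMM-scaled counts for each 1000000 in the library) stood for 13.5 to 18.1 counts. COPD replicate 5 lay at -21.9 on the first principal component of all tested genes, inside the control range of -23.9 to -10.04, while the other COPD libraries lay between 11.4 and 38.0. Y-linked transcripts were found in 7 libraries, the 5 controls and COPD replicates 2 and 3. They summed to 81.3 to 109 CPM there and to 0.184 to 0.295 CPM in the other COPD libraries. By these counts every control looked male and the COPD group looked mixed, so the main comparison is partly confounded with sex. The fits below that use Y-linked counts rest on COPD replicates 2 and 3 against the controls.

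The sequences of the windows upstream of 3 of the genes are shown because these are the genes where the data below turn: Slc16a3, with the smallest p of the 10, its relative Slc16a1, and Pfkfb3, the most variable. Each window is the 250 bases before a RefSeq transcript start (GRCm38.p6), written 5′ to 3′ on the strand of the gene, with matches of ACGTG on either strand in capitals. ACGTG is the core of the element bound by hypoxia-inducible factors.
Slc16a3, chr11:120948817-120949066, plus strand: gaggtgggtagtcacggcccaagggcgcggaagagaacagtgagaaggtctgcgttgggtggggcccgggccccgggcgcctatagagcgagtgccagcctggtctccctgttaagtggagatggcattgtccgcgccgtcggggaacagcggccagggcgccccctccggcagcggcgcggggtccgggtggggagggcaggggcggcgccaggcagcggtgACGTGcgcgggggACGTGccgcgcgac
Slc16a1, chr3:104638414-104638663, plus strand: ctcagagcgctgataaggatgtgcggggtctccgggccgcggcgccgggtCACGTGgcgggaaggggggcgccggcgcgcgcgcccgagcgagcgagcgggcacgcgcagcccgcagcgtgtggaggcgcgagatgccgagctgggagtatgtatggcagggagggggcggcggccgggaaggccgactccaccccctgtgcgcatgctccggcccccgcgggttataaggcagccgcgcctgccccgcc
Pfkfb3, chr2:11502091-11502340, minus strand: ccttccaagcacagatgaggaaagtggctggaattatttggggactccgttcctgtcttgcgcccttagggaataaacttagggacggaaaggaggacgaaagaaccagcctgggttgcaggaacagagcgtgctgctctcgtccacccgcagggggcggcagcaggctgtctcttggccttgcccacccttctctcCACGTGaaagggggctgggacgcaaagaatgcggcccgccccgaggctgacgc
The Slc16a3 window held ACGTG at 2 places, starting 27 and 14 bases before the start. The printed Slc16a1 and Pfkfb3 windows each held it within CACGTG, the E-box bound by clock and Myc-family factors, starting 200 and 53 bases before the start; CACGTG reads the same on both strands and holds ACGTG on each. The other Pfkfb3 window in the table, not printed, held ACGTG outside CACGTG, starting 60 bases before its start. Of the 10 genes, 8 had at least 1 window in the table, 13 windows in all. ACGTG was found in 5 of these 13 windows, against 16.6% of all 32851 windows of that length, and CACGTG in 2 of 13, against 6.02%. The 5 windows with ACGTG were those of Slc2a1, Slc16a1 and Slc16a3 and both of Pfkfb3. The windows of Hk1, Ldhb, Pfkfb1 and Pfkfb4 held no ACGTG. The cAMP response element TGACGTCA was in 0 of 13 windows (1.55% of all), and so was the full palindromic glucocorticoid response element (0.00913% of all). A match is a string of letters and was not tested as a binding site.

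By level, Bsg led with 1233 ± 281 TPM over the 10 libraries (mean ± SD), and every library had it above Slc2a4, at 516 ± 68.9 TPM. Slc16a3 followed at 379 ± 89.2 TPM, below Slc2a4 in 8 of 10 libraries, so these neighbours overlapped. Ldhb was at 121 ± 53.2 TPM, below Slc16a3 in 10 of 10 libraries and above Pfkfb3 in 9. The 3 Pfkfb genes lay close together, with Pfkfb3 at 52.9 ± 29.7, Pfkfb4 at 37.1 ± 7.95 and Pfkfb1 at 35.4 ± 9.56 TPM, and their ranges overlapped. A lower set was formed by Slc16a1 at 10.1 ± 2.47, Slc2a1 at 7.73 ± 2.17 and Hk1 at 5.92 ± 1.34 TPM, again with overlapping ranges, but Slc16a1 was below Pfkfb1 in 10 of 10 libraries.

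**Figure D1:**
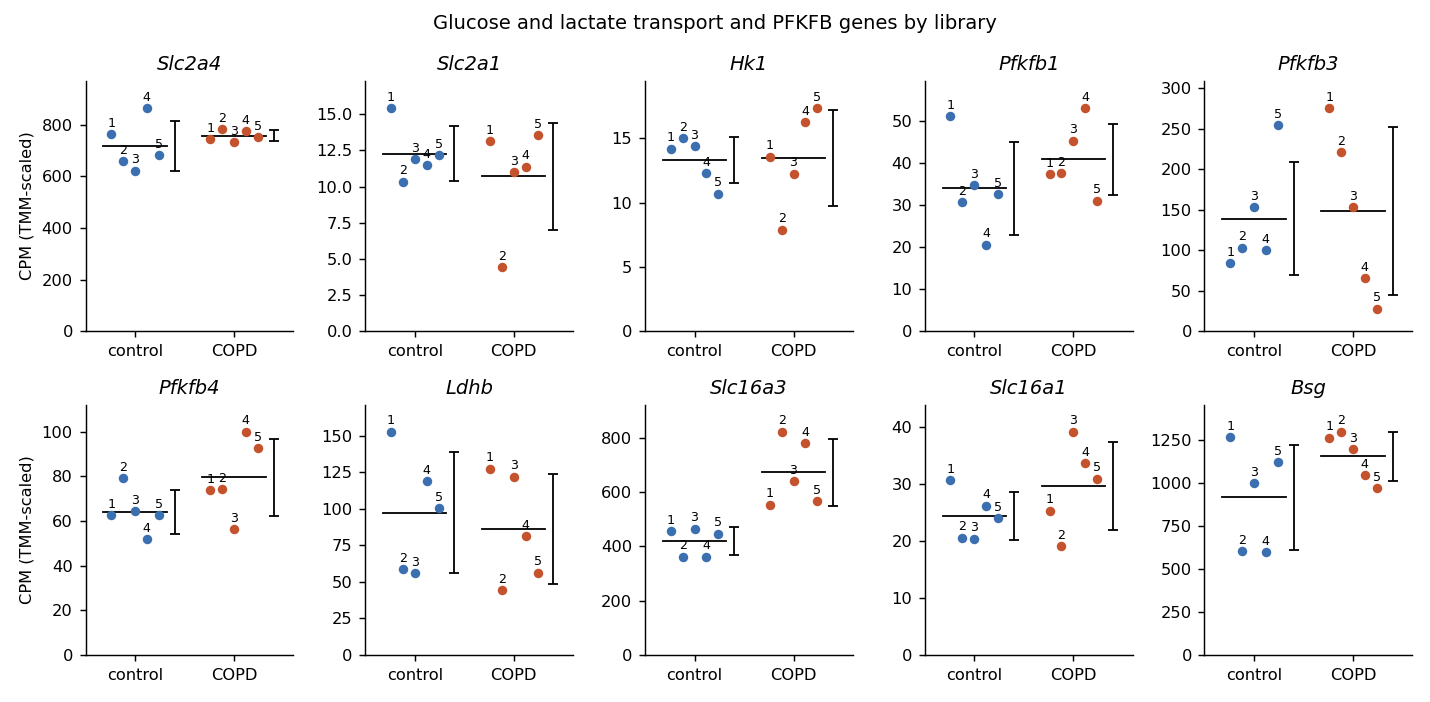
TMM-scaled CPM of each gene (vertical axis from 0) in the 5 control (blue) and 5 COPD (red) libraries. Points are libraries numbered by replicate, horizontal lines are means and bars are SD. Only in the Slc16a3 panel do all COPD points (553 to 822 CPM) lie above all control points (362 to 465 CPM).

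The comparison of COPD with control asked whether these genes differ in the muscle of the disease model. By the quasi-likelihood test of edgeR, adjusted over all genes after Benjamini and Hochberg, 0 of the 10 genes passed the threshold of 0.05, where 0.063% of all tested genes did. DESeq2, run without the low-count filter, called 1 of them, Slc16a3, against 2.31% of its 17903 genes. Voom with sample weights called the same gene, against 1.08% of the 12697 genes. The DESeq2 share is thus not on the same base as those of edgeR and voom. At an unadjusted p under 0.05 edgeR listed 1 of 10, against 14.6% of all genes. The groups did not overlap for 1 of 10, against 2.84% of all genes. Log2 fold changes were above 0 for 8 of the 10 genes, with a median of 0.18, against 48% of all genes and a median of -0.01. With library size alone, which moved the median of all genes to -0.17, 5 of 10 were above 0. With limma on log2(TPM + 1), which moved it to -0.18, 5 of 10 were above 0 as well.

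**Figure D2:**
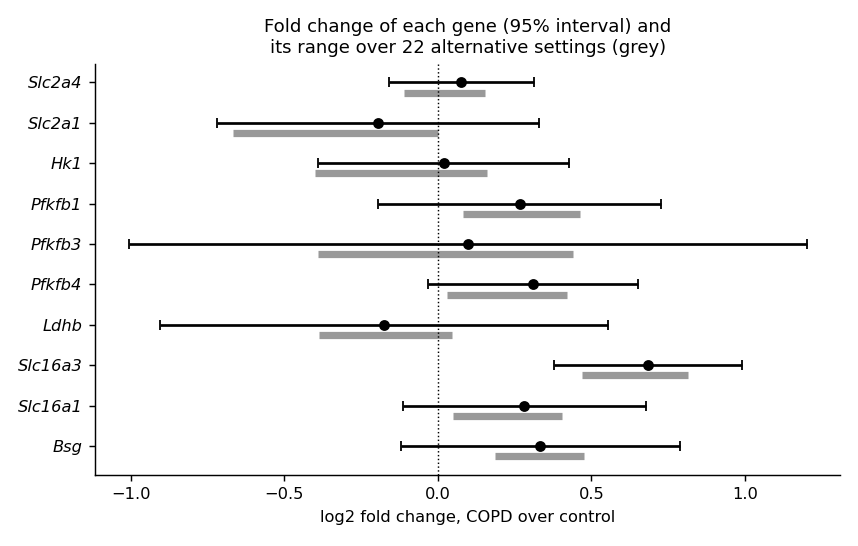
Log2 fold change of COPD over control (horizontal axis) for each gene by edgeR, with its 95% confidence interval (black), and the span of the estimate over 22 alternative settings (grey). The interval of Slc16a3 runs from 0.38 to 0.99; the other 9 intervals include 0, the widest being that of Pfkfb3, from -1.01 to 1.2.

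Slc16a3, the lactate exporter of glycolytic fibres, had the smallest p of the 10 and ranked 56 among the 12697 genes. It was at 456, 362, 465, 362 and 446 CPM in control replicates 1 to 5, and at 553, 822, 639, 779 and 565 CPM in COPD replicates 1 to 5. The 5 COPD libraries all lay above the 5 controls on this scale, with replicates 2 and 4 highest. The means were 418 ± 51.7 and 672 ± 123 CPM (SD over 5 libraries each), 0.68 ± 0.14 (SE) apart on the log2 scale, and edgeR's adjusted p of 0.0858 missed the threshold. In TPM the means were 316 ± 36.0 and 441 ± 82.1, and the groups overlapped, because COPD replicate 1 at 339.8 TPM lay below control replicates 1 and 5, at 350.2 and 355 TPM. Without COPD replicate 5 Slc16a3 passed by edgeR (log2 fold change 0.74 ± 0.14, adjusted p = 0.0234), where 3.21% of all genes did. It also passed with a term for Y-linked counts (0.80 ± 0.18, adjusted p = 0.0483), where 1.7% of all genes did, and over the 7 libraries with such counts (0.82 ± 0.16, adjusted p = 0.029), where 3.7% did; both rest on COPD replicates 2 and 3 against the controls.

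**Figure D3:**
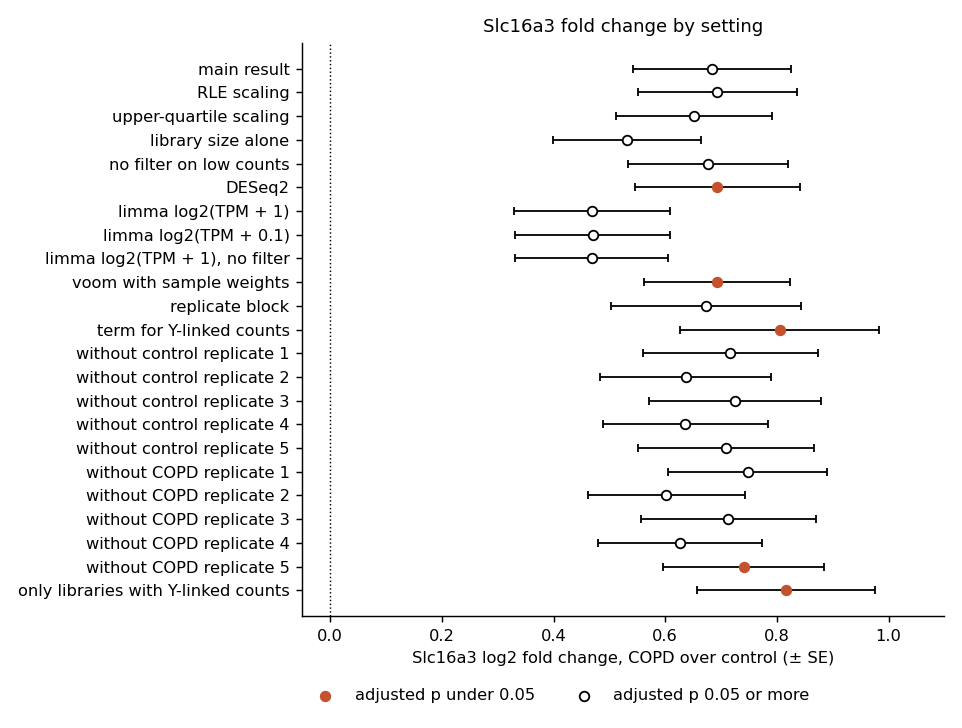
Log2 fold change of Slc16a3 ± SE (horizontal axis) under the main edgeR analysis and 22 alternatives (vertical axis); filled points have an adjusted p under 0.05. The estimate lies between 0.47 and 0.82 in every alternative drawn, and 5 of the 22 pass the threshold.

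Slc16a1, the lactate transporter of oxidative fibres, was at 30.6, 20.6, 20.4, 26.2 and 24.01 CPM in control and at 25.3, 19.1, 39.2, 33.6 and 30.9 CPM in COPD. The groups overlapped, and COPD replicate 2, highest for Slc16a3, was the lowest of the 10 for Slc16a1. Its log2 fold change was 0.28 ± 0.18 (SE; 95% interval -0.11 to 0.68, edgeR's adjusted p = 0.515). In TPM, Slc16a1 made up 3.01 ± 0.559% of the sum of both transporters in control and 2.35 ± 0.733% in COPD (SD over 5 libraries each), with 1.21% in COPD replicate 2. The ranges of that share, 2.26 to 3.68% and 1.21 to 3.13%, overlapped.

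Bsg, the chaperone of both transporters, was at 1265, 602, 997, 598 and 1119.8 CPM in control and at 1264, 1298, 1194, 1047 and 969 CPM in COPD. Control replicates 2 and 4, the lowest of the 10, were also the controls with the least Slc16a3. The COPD libraries lay inside or just above the control range and closer together, with an SD of 141 against 304 CPM. For Bsg the log2 fold change was 0.33 ± 0.21 (SE; 95% interval -0.12 to 0.79, edgeR's adjusted p = 0.499). In TPM, Bsg was at 3.55 ± 0.830 times the sum of Slc16a1 and Slc16a3 in control and 2.92 ± 0.570 times in COPD, with overlapping ranges.

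Ldhb was at 153, 58.5, 55.9, 119 and 100.6 CPM in control and at 128, 44.6, 122, 81.5 and 56.3 CPM in COPD. Each group held high and low libraries, spread over 3.43-fold in all. COPD over control gave a log2 fold change of -0.17 ± 0.34 (SE; 95% interval -0.90 to 0.56, edgeR's adjusted p = 0.857), and it was 0.05 without control replicate 1, the highest library. Ldhb made up 4.55 ± 2.33% of the summed TPM of Ldha and Ldhb in control and 2.90 ± 1.48% in COPD (SD over 5 libraries each), so that the muscle form Ldha prevailed in each library. The 7 slow-fibre markers summed to 190 to 1357 TPM in control and 100.2 to 453 TPM in COPD, highest in control replicates 1 and 4 at 1357 and 937 TPM, which were also the controls with the most Ldhb. COPD replicates 1 and 3 had 279 and 139 TPM of those markers. Their Ldhb was above that of control replicate 4 in CPM (128 and 122 against 119). In TPM it was below (144.1 and 151.0 against 169.8). The part of fibre makeup in the Ldhb values was not tested, and in a bulk sample fewer cells of a type cannot be told apart from less RNA per cell. The genes whose profile over the 10 libraries was nearest to that of Ldhb, among 9212 with at least 5 CPM, were Khdrbs3, which encodes an RNA-binding protein, Smtnl1, a smoothelin relative, and Fxyd6, a regulator of the sodium pump. Their root mean square differences from it were 0.28, 0.29 and 0.31 in log2 CPM centred on each gene, against an SD of 0.62 for Ldhb itself.

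Slc2a4, the insulin-responsive transporter, was the steadiest of the 10 genes, with 1.39-fold between its highest and lowest library. It was at 763, 658, 622, 866 and 682 CPM in control and at 743, 783, 732, 776 and 753 CPM in COPD. All COPD values fell within the control range. Its log2 fold change was 0.08 ± 0.11 (SE; 95% interval -0.16 to 0.31, edgeR's adjusted p = 0.794). With library size alone it was -0.09 and with limma on log2(TPM + 1) it was -0.11, so its sign turned with the scaling.

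Slc2a1, the basal glucose transporter, was at 15.4, 10.3, 11.9, 11.5 and 12.2 CPM in control and at 13.1, 4.43, 11.02, 11.4 and 13.6 CPM in COPD. The groups overlapped except for COPD replicate 2, which lay below all others. COPD over control gave a log2 fold change of -0.19 ± 0.24 (SE; 95% interval -0.72 to 0.33, edgeR's adjusted p = 0.761), and without COPD replicate 2 it was 0.0018. The size of the difference moved with the fit. It was -0.67 ± 0.28 given the Y-linked term (unadjusted p = 0.0376, edgeR's adjusted p = 0.246) and -0.66 ± 0.30 over the 7 libraries that have such counts (adjusted p = 0.253), where COPD is represented by replicates 2 and 3 alone. By limma on log2(TPM + 1) it was -0.42 ± 0.24 (adjusted p = 0.252). Slc2a1 made up 1.63 ± 0.250% of the summed TPM of Slc2a1 and Slc2a4 in control and 1.33 ± 0.465% in COPD (SD over 5 libraries each). COPD replicate 2 also had the lowest sums of the 10 libraries for 9 endothelial markers (187 TPM, against 206 to 337 TPM in the others), 8 macrophage markers (42.1 against 55.7 to 183 TPM) and 5 markers of Schwann cells and nerve sheath (60.6 against 65.5 to 230.1 TPM). Its sums of slow-fibre markers (100.2 TPM) and neutrophil markers (4.79 TPM) were the lowest of the 10 libraries as well. Its sums of skeletal muscle, fast-fibre, adipocyte and tendon markers were not. The red-cell markers summed to 1259.7 TPM in COPD replicate 2, between 140.6 and 4070 TPM elsewhere. The part of these cell types in the Slc2a1 value was not tested. The nearest profiles to Slc2a1 were those of Pam, a peptide-amidating enzyme, Asap2, an Arf GTPase activator, and Axl, a receptor tyrosine kinase, with root mean square differences of 0.16, 0.19 and 0.19 in centred log2 CPM against an SD of 0.48 for Slc2a1. All of these had their lowest value in COPD replicate 2, at 8.05, 3.10 and 14.2 CPM. They were picked for likeness over these same libraries, so the shared low library is no separate result.

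Hk1, the broadly expressed hexokinase, was at 14.2, 15.02, 14.4, 12.3 and 10.7 CPM in control and at 13.6, 7.91, 12.3, 16.3 and 17.4 CPM in COPD. The COPD group held both the lowest and the 2 highest libraries. For Hk1 the log2 fold change was 0.02 ± 0.19 (SE; 95% interval -0.39 to 0.43, edgeR's adjusted p = 0.976), with either sign under other settings: it was -0.05 without control replicate 5, -0.01 without control replicate 4, -0.06 without COPD replicate 4 and -0.09 without COPD replicate 5. Hk2, the main hexokinase of muscle, held most of the transcripts: Hk1 made up 6.96 ± 1.75% of the summed TPM of both in control and 6.64 ± 2.79% in COPD (SD over 5 libraries each). The share was lowest in COPD replicate 3, at 2.98%, where the 2 genes summed to 171.5 TPM, against 58.2 to 123.5 TPM in the other libraries.

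Pfkfb3, the inducible member with high kinase activity, varied most, 9.88-fold between libraries. It was at 84.3, 103, 153, 99.8 and 254 CPM in control and at 276, 221, 153.1, 65.9 and 27.9 CPM in COPD. COPD replicates 1 and 2 were near the highest control, replicate 5, while COPD replicates 4 and 5 lay below every control. The group means of 139 ± 69.5 and 149 ± 103 CPM (SD over 5 libraries each) lay at a log2 fold change of 0.10 ± 0.51 (SE; 95% interval -1.01 to 1.2, edgeR's adjusted p = 0.949). Leaving out 1 library moved the estimate between -0.25 (without COPD replicate 1) and 0.43 (without control replicate 5); without control replicates 1 and 4 in turn it was -0.04 and -0.0013, and without COPD replicate 2 it was -0.09. The nearest profiles were those of Klhl38, which encodes a kelch protein, Ddit4l, an inhibitor of mTORC1, and Chac1, a glutathione-degrading enzyme induced in amino acid stress. Their root mean square differences were 0.48, 0.50 and 0.53 in centred log2 CPM, against an SD of 1.01 for Pfkfb3. As with Pfkfb3, each was lowest of all libraries in COPD replicate 5. The values there were 10.5 CPM for Klhl38, 61.9 CPM for Ddit4l and 11.8 CPM for Chac1. Likeness over the same libraries picked these genes, so this is no separate result.

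Pfkfb4 was at 62.5, 79.2, 64.4, 51.8 and 62.5 CPM in control and at 73.9, 74.3, 56.5, 100.1 and 92.7 CPM in COPD. Only COPD replicates 4 and 5, the libraries with the least Pfkfb3, lay above the highest control. The log2 fold change was 0.31 ± 0.16 (SE; 95% interval -0.03 to 0.65, edgeR's adjusted p = 0.386). It shrank to 0.03 ± 0.18 given the Y-linked term (adjusted p = 0.959), to 0.04 ± 0.17 over the 7 libraries that have such counts, which leave out COPD replicates 1, 4 and 5, and to 0.09 ± 0.17 by limma on log2(TPM + 1) (adjusted p = 0.733). Pfkfb1, the form known from liver and muscle, was at 51.1, 30.6, 34.7, 20.6 and 32.6 CPM in control and at 37.3, 37.5, 45.2, 53.01 and 31.02 CPM in COPD, with wide overlap. Its log2 fold change was 0.27 ± 0.21 (SE; 95% interval -0.20 to 0.73, edgeR's adjusted p = 0.610). Exons of Pfkfb1 overlap those of the tested gene Apex2 on the opposite strand in the GENCODE M21 annotation (GRCm38). The Pfkfb1 value is thus uncertain to the extent that the counting did not use strand. The same holds for Slc2a1 and Hk1, which overlap Gm12868 and Hk1os on the opposite strand. Neither Gm12868 nor Hk1os was among the genes counted.

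The summed TPM of the 4 Pfkfb genes, Pfkfb2 included, came to 129.8 ± 32.1 in control against 129 ± 24.4 in COPD (SD over 5 libraries each), while its makeup differed between libraries. Pfkfb3 took 27.0, 33.9, 45.0, 43.04 and 58.02% of the sum in control and 57.9, 51.0, 42.7, 18.5 and 11.2% in COPD. Pfkfb4 took 28.3 ± 6.07% in control and 31.7 ± 13.7% in COPD, with 52.2% in COPD replicate 5. Pfkfb1 took 27.1 ± 8.42% and 28.7 ± 7.94%, and Pfkfb2, the heart form, 3.16 ± 0.670% and 3.30 ± 1.41%. These shares overlapped between the groups for each of the 4 genes and, as sums over chosen genes, were not tested.

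**Figure D4:**
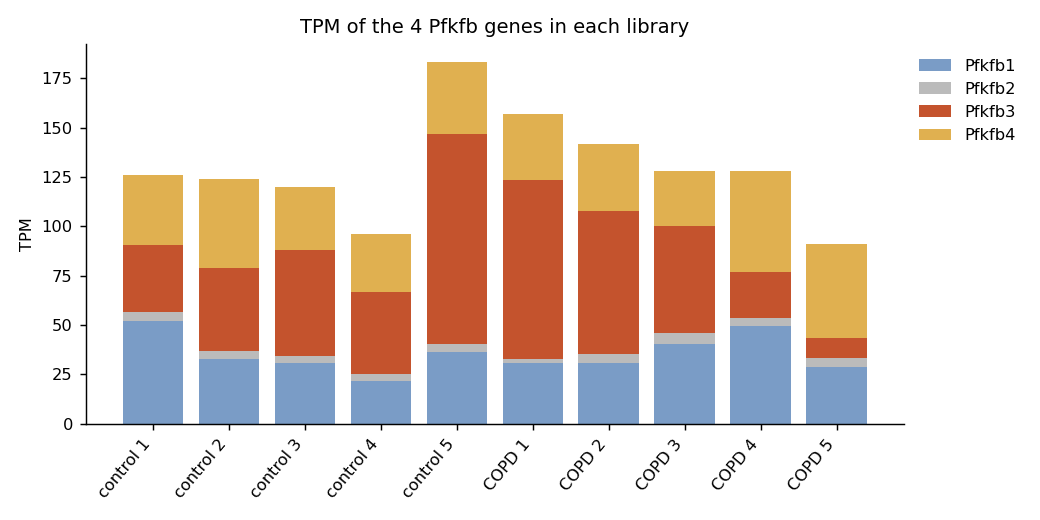
TPM (vertical axis from 0) of Pfkfb1, Pfkfb2, Pfkfb3 and Pfkfb4 stacked for each of the 10 libraries. The Pfkfb3 segment runs from 10.2 TPM in COPD replicate 5 to 106 TPM in control replicate 5, while Pfkfb1 and Pfkfb4 stay between 21.4 and 52.2 TPM.

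Other genes of the pathway were read from 6 lists, 92 genes in all, of which 79 were tested. Of these, 0 passed the threshold by edgeR. At an unadjusted p under 0.05, 24 of 79 were higher and 2 lower in COPD, against 7.94% and 6.63% of all genes. The lists were chosen with earlier results of these data known, so their counts and medians are no test of the lists. DESeq2, without the low-count filter, called 7 of 91, all higher, against 2.31% of its 17903 genes. Voom with sample weights called 3 of 79, against 1.08%, and edgeR without COPD replicate 5 called 7 of 79, against 3.21%. Once the Y-linked term entered edgeR's fit, 0 of 79 passed, against 1.7% of all genes, with 27 of 79 at an unadjusted p under 0.05. The median log2 fold change over the 79 was 0.20, against -0.01 over all genes tested. Library size alone moved the median of all genes to -0.17 and limma on log2(TPM + 1) to -0.18. The list medians and the counts above 0 were read under the main TMM scaling only.

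In the list of glucose entry and GLUT4 traffic, 17 of 21 genes were tested, with a median of 0.02, and 1 was listed at an unadjusted p under 0.05. This was Vamp2, a vesicle fusion protein, with 82.0 ± 3.39 CPM in control against 71.1 ± 4.13 CPM in COPD (SD; log2 fold change -0.21 ± 0.08). Tbc1d4 (AS160), which holds GLUT4 vesicles back until insulin signals, had a log2 fold change of -0.63 ± 0.29, and Arrdc4, an arrestin that removes glucose transporters from the surface, one of -0.33 ± 0.19. Their adjusted p by edgeR were 0.274, 0.344 and 0.450.

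Of the hexokinase and phosphofructokinase steps, 9 of 12 genes were tested and 3 were listed at an unadjusted p under 0.05, all higher. Pfkm, the muscle phosphofructokinase that the PFKFB product activates, was at 3228 ± 343 and 4072 ± 472 CPM (log2 fold change 0.33 ± 0.12). Pfkp, the platelet form, had a log2 fold change of 0.39 ± 0.15, and the muscle fructose bisphosphatase gene Fbp2 one of 0.54 ± 0.23. Their adjusted p by edgeR ran from 0.244 to 0.309.

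Among genes of lactate, pyruvate and monocarboxylate handling, 11 of 15 were tested and 3 were listed, all higher. Ldha, which makes lactate in fast fibres, was at 2754 ± 568 and 3740.1 ± 544 CPM (log2 fold change 0.44 ± 0.16). Mpc2, a subunit of the mitochondrial pyruvate carrier, had a log2 fold change of 0.35 ± 0.14, and Slc16a9, a relative of the lactate transporters, one of 0.83 ± 0.33. Their adjusted p by edgeR ran from 0.242 to 0.281. Without COPD replicate 5, Ldhd and Mpc2 passed.

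In lower glycolysis, 9 of 9 tested genes were above 0, with a median of 0.38, and 6 were listed at an unadjusted p under 0.05. In mean TPM, Pgam1 was lower in COPD (14.5, against 16.2 in control), and the other tested genes of the list were higher. Eno3, the muscle enolase, was at 4275 ± 671 and 6154 ± 539 CPM without overlap (log2 fold change 0.53 ± 0.13, edgeR's adjusted p = 0.105). Pgam2, the muscle phosphoglycerate mutase, was at 2292 ± 518 and 3696 ± 643 CPM (0.69 ± 0.17, adjusted p = 0.107), and Gapdh had a log2 fold change of 0.38 ± 0.14 (adjusted p = 0.244). DESeq2 called Eno3 and Pgam2. Given the Y-linked term, edgeR called 0 of the 9, with 2 at an unadjusted p under 0.05. The slow-fibre markers were below 0 for 7 of 7, from -1.88 for Myh7 to -0.69 for Atp2a2, with 2 of 7 at an unadjusted p under 0.05. Of the fast-fibre markers 8 of 8 were above 0, up to 0.59 for Pvalb, the only one with an unadjusted p under 0.05. They summed to 128142 to 170998 TPM in control and 142655 to 178508 TPM in COPD. In mean TPM, Actn3 (6322 in control, 5552 in COPD) and Atp2a1 (23615 and 21608) were lower in COPD, and the other fast-fibre markers were higher. Macrophage markers were below 0 for 8 of 8, 4 of them at an unadjusted p under 0.05, and summed to 104 to 183 TPM in control and 42.1 to 138 TPM in COPD. Of the 5 skeletal muscle markers 3 were above 0 and 2 below, with 1 at an unadjusted p under 0.05. This was myoglobin (Mb), the oxygen store of muscle fibres, with a log2 fold change of 0.56 (edgeR's adjusted p = 0.327). Acta1 was at 0.37, Ckm at 0.23, Ttn at -0.034 and Des at -0.095. The part of these markers' cells and fibres in the lower glycolysis values was not tested.

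Hypoxia-responsive genes went both ways, with 7 of 15 tested genes above 0 and a median of -0.04, and 4 were listed, all higher. Higd1a, a mitochondrial protein, had a log2 fold change of 0.36 ± 0.10 (edgeR's adjusted p = 0.147), the carbonic anhydrase gene Car9 one of 1.17 ± 0.40 (adjusted p = 0.219) and Vegfa one of 0.53 ± 0.19 (adjusted p = 0.245). Car9 was at 5.88 TPM in COPD replicate 4 and between 1.07 and 1.96 TPM elsewhere.

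Of 18 regulators of glucose transport and glycolysis genes, 8 were listed as higher and 1 as lower. The clock gene Clock (log2 fold change 0.58 ± 0.12, edgeR's adjusted p = 0.0795), Klf15 (0.83 ± 0.19, adjusted p = 0.0973), a glucocorticoid-induced factor that raises Slc2a4 transcription, and Clock's partner Arntl (1.53 ± 0.37, adjusted p = 0.104) had the smallest p. Without COPD replicate 5 these 3 genes passed, and DESeq2 called them and Mef2c. Given the Y-linked term, edgeR called 0 of the 18, with 9 at an unadjusted p under 0.05.

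**Figure D5:**
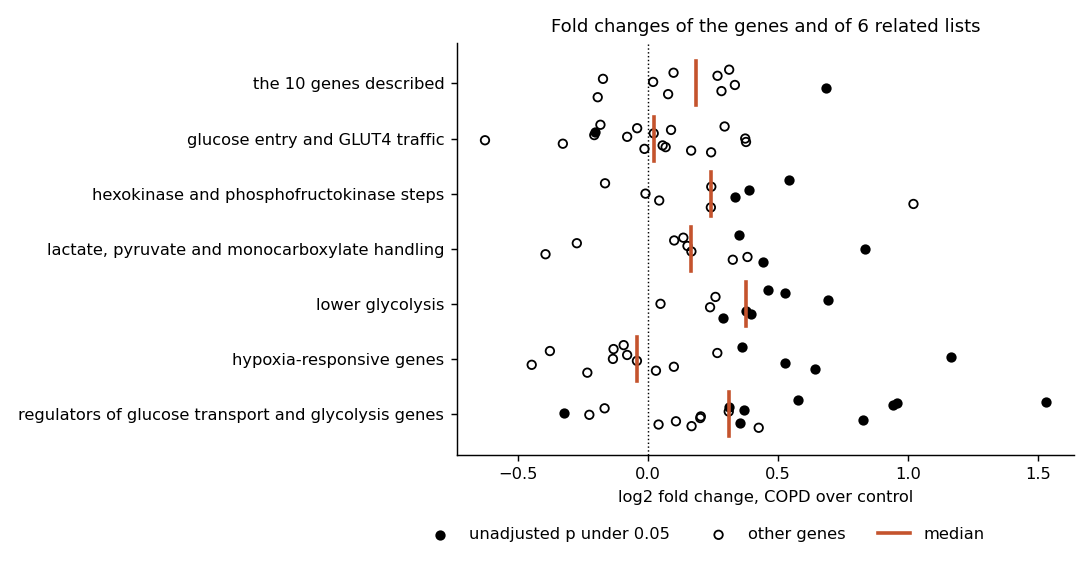
Log2 fold change of COPD over control (horizontal axis) for the tested genes of the 6 lists and the 10 genes described (rows). Each point is a gene, filled where the unadjusted p is under 0.05, and the red bar is the median, which lies at 0.38 for lower glycolysis and at 0.02 for glucose entry and GLUT4 traffic.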

How the data were processed

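Gene tables of 10 gastrocnemius samples were used, grouped by title. The authors deposited expected counts per gene (estimates that need not be whole, 30.7% of values not whole) and TPM. Per the submitters' processing notes, tools were RSEM 1.2.12, Bowtie2 2.2.5, HISAT2 2.0.4 and DESeq2 1.4.5, with build mm9 and no stated roles; strand use was not given in the sources used here.

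Expected counts were rounded, filtered with filterByExpr, scaled by TMM and tested with edgeR 4.0.16 (glmQLFit, glmQLFTest), Benjamini-Hochberg threshold 0.05, in R 4.3.3. The SE is the size of the log2 fold change over the square root of F. Alternatives used limma 3.58.1 (log2 values with pseudocounts of 1 and 0.1) and DESeq2 1.42.0, other scaling, no filter, a replicate block, a Y-linked term (Ddx3y, Eif2s3y and Kdm5d together at 1 CPM or more) and each library left out. The fit on libraries with Y-linked counts was added after seeing the data. The procedure was tested on simulated data.

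The genes and lists were chosen with earlier results of these data known. The text names, per list, genes past the threshold or else the 3 with the smallest p. Prkaa2, the only regulator listed as lower, is named as well. For the 3 members of largest SD the text names the 3 nearest profiles at 5 CPM or more. Each pair of libraries differed beyond sampling noise (chi-square over degrees of freedom, 16.9 to 115).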

Additional observations from a re-analysis of the deposited data

Results flagged for a closer look

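In COPD replicate 2, Slc2a1 was at 4.43 CPM, far from the other 4 COPD libraries, whose nearest was at 11.02 and highest at 13.6 CPM. Its gap took up 0.72 of the range of the group, above Dixon's critical value of 0.71 for 5 samples. The share of Slc2a1 in the summed TPM of Slc2a1 and Slc2a4 stood apart in the same library, at 0.528%, with the others between 1.39 and 1.67%. The share holds the same Slc2a1 value, so these are not separate results. In all, 36 groups of 5 values were examined, and chance alone marks about 5% of such groups.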

How the results depend on the processing

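Over all genes, 8 were called. Without a low-count filter 17 were, by DESeq2 414, by voom with sample weights 137, by limma on log2(TPM + 1) 67, with a pseudocount of 0.1 65 and without a TPM filter 2. A Y-linked term gave 216 calls, and the fit on only those libraries with Y-linked counts 488. Leaving out 1 library gave 0 (without COPD replicate 2) to 410 (without COPD replicate 5). The split was 7 higher and 1 lower, with upper-quartile scaling 7 and 3, with library size alone 2 and 4, with limma on log2(TPM + 1) 9 and 58.

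Of the 10 genes, 1 was called, in place of 0, by DESeq2 (Slc16a3, adjusted p = 0.000791), by voom with sample weights (0.0389), with the Y-linked term (0.0483), on only the libraries with Y-linked counts (0.029) and without COPD replicate 5. Leave-one-out counts ran from 0 to 1. The adjusted p of Slc16a3 ran from 0.000791 to 0.203 over 22 alternatives. Slc16a1, Slc16a3, Bsg, Pfkfb1 and Pfkfb4 were above 0 in 22 of 22, with Pfkfb4 from 0.029 to 0.42.

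Signs turned for the other 5 genes, none of them called in any of these alternatives. Hk1 was at -0.0097 with upper-quartile scaling, -0.13 with library size alone, -0.18 with limma on log2(TPM + 1), with or without a filter, -0.22 with a pseudocount of 0.1, -0.12 by voom, -0.014 with the replicate block, -0.40 with the Y-linked term, -0.39 on only the libraries with Y-linked counts and from -0.090 to 0.16 without single libraries. Pfkfb3 was at -0.055 with library size alone, -0.37 with log2(TPM + 1), -0.39 with a pseudocount of 0.1, -0.015 by voom, -0.080 with the replicate block and from -0.25 to 0.43 without single libraries. Slc2a4 was at -0.088 with library size alone and -0.11 in each TPM setting. Without single libraries Ldhb ran from -0.36 to 0.048 (without control replicate 1) and Slc2a1 from -0.30 to 0.0018 (without COPD replicate 2); the Y-linked term took Slc2a1 to -0.67. The cause was not tested.

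Same-numbered samples did not deviate together over all tested genes (correlations of deviations -0.14 to 0.04 over 5 numbers). The labels do not say that the numbers pair samples, and such correlations cannot exclude a pairing. The replicate block left 7 genes called and Slc16a3 at an adjusted p of 0.203. Standard errors did not fall steadily with depth over the 10 genes. Hk1, at 107 to 284 counts a library, had 0.19, Slc2a1, at 60 to 274, 0.24 and Slc16a1, at 258 to 543, 0.18. Pfkfb1, at 371 to 906, had 0.21, Pfkfb4, at 769 to 1516, 0.16 and Ldhb, at 603 to 2713, 0.34. Pfkfb3, at 456 to 4607, had 0.51. Slc16a3, at 6124 to 11498, had 0.14, Slc2a4, at 9367 to 15621, 0.11 and Bsg, at 10187 to 22431, 0.21.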
